A study of Homo sapiens with 3 samples.

Results

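GPN1, a GTPase needed to bring RNA polymerase II into the nucleus, was examined with 7 other genes of polymerase II assembly in NCI-H1299 cells given miR-34a or ghR-34a. The members were the GPN-loop GTPases GPN1, GPN2 and GPN3, the RNA polymerase II-associated proteins RPAP1, RPAP2 and RPAP3, and POLR2A and POLR2B, which encode the largest polymerase II subunits. They were found by symbol in the platform annotation and came to 8 genes with 15 probe sets, of 19775 genes with 41097 single-gene probe sets in all. GPN1 was chosen by its measured signal, which was low in the miR-34a array alone, so its differences are given as a description with no test. The other 7 were taken for their role, though with earlier results of these data known.

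NCI-H1299 is an established human line of non-small cell lung cancer without functional p53. The study profiled total RNA to find which mRNAs under miR-34a control are lost by degradation, as opposed to being held back in translation. The 3 arrays came from 1 mock culture, 1 miR-34a transfectant and 1 ghR-34a transfectant, the last named in the labels without further detail. Transfection used 25 nM of RNA and a lipid reagent for 48 hours, and labelling used 250 ng of total RNA per array. The labels do not say how mock cells were treated, and no culture is labelled as having received an unrelated RNA. Since every condition was measured once, there is no replicate spread and nothing was tested. Differences are therefore compared by size, and the number of arrays limits their precision.

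RNA polymerase II is put together in the cytoplasm from separate groups of subunits and enters the nucleus as an assembled enzyme. GPN1 and GPN3 bind each other and the enzyme, and loss of either leaves polymerase II subunits in the cytoplasm. RPAP3 belongs to the R2TP co-chaperone, which works with HSP90 during assembly. RPAP2 travels with the polymerase and removes phosphate from the heptad repeats of the POLR2A tail. RPAP1 links the enzyme to further factors. GPN2 is a relative of GPN1 and GPN3, also tied to polymerase assembly.

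The RNA under study is shown first. RefSeq gives these mature arms of MIR34A in GRCh38.p14, both on the minus strand, at chr1:9151735-9151756 for the 5p arm and chr1:9151693-9151714 for the 3p arm. Capitals mark the seed, bases 2 to 8, through which a microRNA recognises its targets. The labels do not give the sequence of the transfected RNAs, so these are the reference sequences only.
hsa-miR-34a-5p: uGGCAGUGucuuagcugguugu
hsa-miR-34a-3p: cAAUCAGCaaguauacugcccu

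The GPN1 (Entrez gene 11321) probe set 209313_at had a signal of 3217 in mock, 902 with miR-34a and 3163 with ghR-34a. Only the miR-34a array was low, and the mock and ghR-34a arrays lay close together. All differences below are of log2(signal + 32), which understates changes at low signal. The arrays are scaled to a common level, and fewer cells with the transcript cannot be told apart from less of it per cell. On the log2 scale GPN1 was 3.48-fold lower with miR-34a than in mock, a log2 difference of -1.80. With ghR-34a the log2 difference from mock was -0.024. The ghR-34a array was higher than the miR-34a array by 1.77, or 3.42-fold. These differences share arrays, so the last follows from the others.

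Among the 11916 genes whose signal passed the filter, a mean of about 68.6, GPN1 had the 4th lowest difference between miR-34a and mock. Between ghR-34a and miR-34a it had the 3rd highest. A difference of at least 2-fold, the size rule used here, was met by 1 of 8 members with miR-34a against mock, where 2.36% of all genes met it. The member was GPN1. With ghR-34a against mock 0 of 8 members met it, where 1.02% of all genes did. Between ghR-34a and miR-34a 1 of 8 did, again GPN1, where 0.671% of all genes did. The choice of GPN1 fixes its place in these counts, so they support nothing by themselves. All 8 members passed the filter in the probe set used for the gene, the one with the highest mean.

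GPN1 is represented by 1 probe set in the annotation, so no second probe set could be compared with it. The 42 spike-in control probe sets above the filter give a measure of technical spread. Their log2 differences had an SD of 0.13 for miR-34a against mock, 0.16 for ghR-34a against mock and 0.13 between the transfectants. The largest spike-in difference in either direction was 0.36 for miR-34a against mock, 0.40 for ghR-34a against mock and 0.47 between the transfectants. Many of the differences given below are smaller than these. Spike-ins do not capture variation between cultures.

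**Figure D1:**
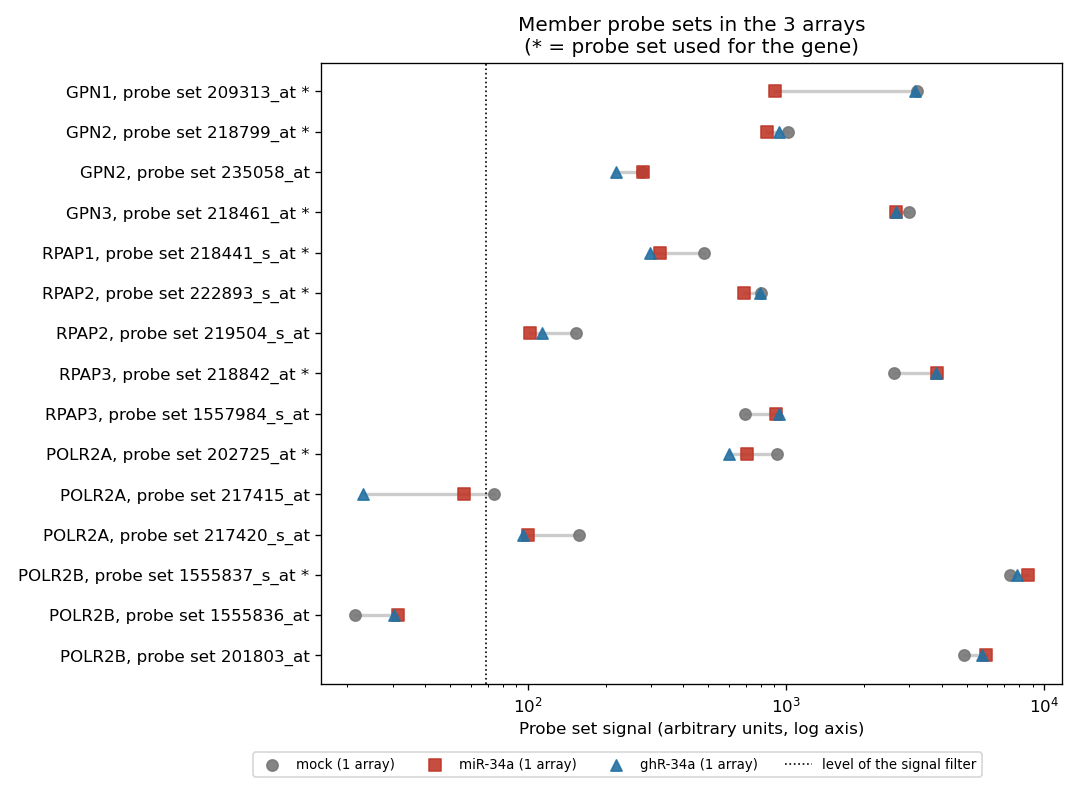
Signal of each of the 15 member probe sets (arbitrary units, log axis) in the mock, miR-34a and ghR-34a arrays, 1 array each, with a grey line from the lowest to the highest array. GPN1 is low in the miR-34a array only (902, against 3217 and 3163), while RPAP3 is higher and RPAP1 lower in both transfectant arrays than in mock.

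With miR-34a the other GPN-loop GTPases were nearer to mock than GPN1, and with ghR-34a they were farther from it, an order that the choice of GPN1 favours. GPN3, the partner of GPN1, had signals of 2998 in mock, 2661 with miR-34a and 2656 with ghR-34a. Both transfectant arrays were slightly and almost equally below mock, at log2 differences of -0.17 each. Of all genes above the filter, 60.1% differed from mock by at least as much with miR-34a.
GPN2 had signals of 1020.4, 842 and 941 in the mock, miR-34a and ghR-34a arrays, with log2 differences from mock of -0.27 and -0.11. Its second probe set, 235058_at, had 277 in mock, 278 with miR-34a and 219 with ghR-34a, so the first placed miR-34a lowest and the second placed ghR-34a lowest. The order of the transfectants for GPN2 was therefore not settled: the log2 difference of ghR-34a from miR-34a was 0.15 in the first and -0.31 in the second.

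Among the RPAP genes, RPAP1 and RPAP3 differed from mock in opposite directions. RPAP1 had a signal of 482 in mock, 325 with miR-34a and 297 with ghR-34a. Both transfectant arrays were below mock, at log2 differences of -0.52 and -0.64. Differences at least that large in either direction were seen in 15.3% of all genes with miR-34a and 5.48% with ghR-34a. RPAP1 has a single probe set, of the _s_at kind that can match more than 1 transcript.

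RPAP3, the HSP90 co-chaperone, had a signal of 2615 in mock, 3829 with miR-34a and 3798 with ghR-34a. Both transfectant arrays were above mock by nearly the same amount, at log2 differences of 0.54 and 0.53, and differed from each other by only -0.011. Its second probe set, 1557984_s_at, was higher too, going from 694 in mock to 916 and 940.3, or log2 differences of 0.39 and 0.42. As large a difference in either direction was seen in 14.1% of all genes with miR-34a and 9.25% with ghR-34a.

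RPAP2, the phosphatase, had signals of 796 in mock, 684 with miR-34a and 791 with ghR-34a. Only the miR-34a array was below the others, by a log2 difference from mock of -0.21. Its second probe set, 219504_s_at, was lower in both transfectant arrays, at 154 in mock, 102 with miR-34a and 113 with ghR-34a. The probe sets of RPAP2 thus had the same direction with miR-34a (-0.21 and -0.47) but differed in size with ghR-34a (-0.0098 and -0.36).

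The polymerase subunits themselves differed in direction. POLR2A, which carries the heptad repeat tail, had a signal of 921 in mock, 707 with miR-34a and 599 with ghR-34a. Mock was highest and ghR-34a lowest, with log2 differences from mock of -0.37 and -0.59. The other POLR2A probe sets had the same order. Probe set 217420_s_at went from 158 in mock to 99.95 and 95.6, and 217415_at, below the filter, from 74.2 to 56.6 and 22.9. Thus 3 of 3 POLR2A probe sets were below mock with each RNA. The lowest and highest differences were -0.53 and -0.26 for miR-34a, and -0.95 and -0.57 for ghR-34a. These probe sets read the same gene in the same RNA, so they are not replicates of the condition.

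POLR2B, the second-largest subunit, had a signal of 7384 in mock, 8658 with miR-34a and 7835 with ghR-34a. Both transfectants were a little above mock, at log2 differences of 0.23 and 0.085. Probe set 201803_at agreed in direction, at 4883, 5915 and 5705, and so did the dim 1555836_at, at 21.4, 31.3 and 30.4. Of all genes, 48.4% differed from mock by at least as much as POLR2B with miR-34a. With ghR-34a 73.1% did.

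Without GPN1, 5 of the 7 members were below mock and 2 above with each RNA. In the 3 comparisons 0 of 7 reached 2-fold, beside 2.36%, 1.02% and 0.671% of all genes, shares at which few or none of 7 would. The members above mock were RPAP3 and POLR2B, and with median centring RPAP2 joined them for ghR-34a, at 0.010. The median log2 difference was -0.21 with miR-34a and -0.11 with ghR-34a, beside medians over all genes of 0.038 and 0.0098. Of all genes, 44.8% were below mock with miR-34a and 48.2% with ghR-34a. Between ghR-34a and miR-34a the 7 ranged from -0.23 for POLR2A to 0.20 for RPAP2 in the probe sets used. The quartiles over all genes were -0.19 and 0.13. GPN1 is no contrast to them here, because it was chosen for being low with miR-34a alone. The 2 comparisons with mock use the same mock array, so a low or high mock value moves both in the same direction.

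**Figure D2:**
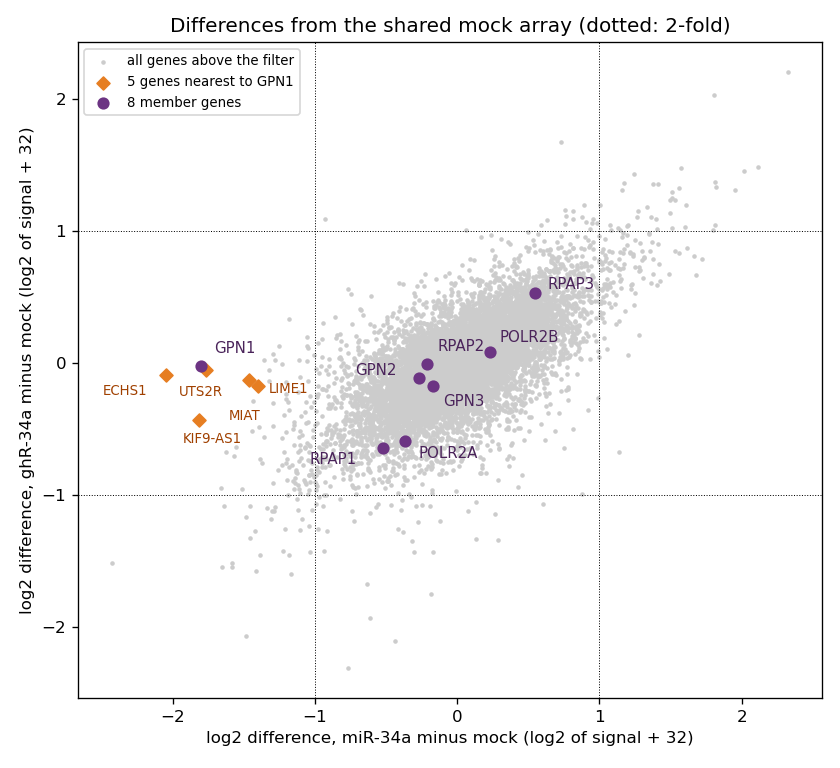
Log2 difference from mock with miR-34a (x axis) and ghR-34a (y axis), in log2 of signal + 32, for all 11916 genes above the filter (grey), the 8 members (purple) and the 5 genes nearest to GPN1 (orange), with dotted lines at 2-fold. GPN1 lies at -1.80 and -0.024, while the other 7 members lie inside the 2-fold lines on both axes. Both axes share the mock array.

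The subunits of polymerase II other than POLR2A and POLR2B were split evenly around mock. Of 10 measured, 5 were below and 5 above with miR-34a, with a median log2 difference of 0.0040, and 0 reached 2-fold with either RNA. The lowest with miR-34a was POLR2D, a subunit of the stalk, with signals of 4819 in mock, 4039 with miR-34a and 4713 with ghR-34a. The highest was POLR2I, with 11129, 13672 and 12502. These log2 differences with miR-34a, -0.25 and 0.30, were smaller than those of RPAP1 and RPAP3.
Of 8 polymerase I subunits, 7 were below mock with miR-34a (median -0.21) and 4 with ghR-34a (median -0.0063), where 44.8% and 48.2% of all genes were. POLR1G was lowest, at -0.34 with miR-34a and -0.67 with ghR-34a, and POLR1C, which polymerase I shares with polymerase III, was highest at 0.28 and 0.40.
Of 10 measured polymerase III subunits, 5 were below mock with miR-34a and 3 with ghR-34a, with medians of -0.029 and 0.10. POLR3K was lowest with miR-34a at -0.44, and POLR3F was highest at 0.18. Without _s_at and _x_at probe sets POLR3K was at -0.68 with miR-34a and -0.51 with ghR-34a.

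The chaperones that act with RPAP3 were nearer to mock than RPAP3 was. In the list of R2TP, prefoldin-like and HSP90 genes 10 of 11 were measured, with medians of 0.033 for miR-34a and 0.0014 for ghR-34a, and 0 reached 2-fold. The lowest was PDRG1, a prefoldin-like subunit, with signals of 2017 in mock, 1518 with miR-34a and 1666 with ghR-34a. The highest with miR-34a was the AAA+ ATPase RUVBL2, at a log2 difference of 0.15, or 0.31 with its probe sets averaged. With ghR-34a it was at 0.035, and at -0.077 without _s_at and _x_at probe sets.
The 5 measured genes of nuclear transport, of 6 listed, were all below mock with each RNA, at medians of -0.17 and -0.17. Of all genes, 44.8% and 48.2% were below mock, and both comparisons use the same mock array. The lowest was KPNA2, an importin alpha, with signals of 24038 in mock, 17384 with miR-34a and 17101 with ghR-34a. KPNA2 was at -0.25 with miR-34a and only -0.017 with ghR-34a when _s_at and _x_at probe sets were left out. RAN, the GTPase that gives transport its direction, was closest to mock with miR-34a at -0.055, inside the spike-in SD of 0.13.

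Kinases and phosphatases of the POLR2A tail, with the RPRD proteins that bind it, had 10 of 17 genes below mock with miR-34a and 9 of 17 with ghR-34a, at medians of -0.0083 and -0.047. The small tail phosphatases were among the lowest. CTDSPL had signals of 513 in mock, 324 with miR-34a and 345 with ghR-34a, with log2 differences of -0.61 and -0.53. These became -0.86 and -0.42 when its probe sets were averaged. CTDSP1, named after its values were seen, went from 1743 to 1213 and 946, at -0.51 and -0.86. CTDSP2, also named after its values were seen, went from 2993 to 1945 and 1674, at -0.61 and -0.83, or -0.50 and -0.65 with its probe sets averaged. All 3 were below mock in both transfectant arrays, and none reached 2-fold. CDK7, the kinase of TFIIH, was highest with miR-34a, at 5276 in mock and 6797 with miR-34a, a difference of 0.36.

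Of 15 general transcription factors measured, 9 were above mock with each RNA, with medians of 0.076 and 0.13, where 55.2% of all genes were above mock with miR-34a and 51.8% with ghR-34a. GTF2A1, a subunit of TFIIA, was highest with miR-34a at 0.38 but stood at 0.11 when its probe sets were averaged. GTF2E2, a subunit of TFIIE, was lowest at -0.20.
Of 12 measured elongation factors, 6 were below mock with miR-34a and 5 with ghR-34a, with medians of 0.010 and 0.086. CDC73 of the PAF1 complex was highest, at 666 in mock, 958 with miR-34a and 997 with ghR-34a. Its log2 differences of 0.51 and 0.56 became 0.31 and 0.28 when its probe sets were averaged. NELFB, a subunit of the pausing factor NELF, was lowest with miR-34a, from 1353 to 935.
Over these 8 lists, 87 of 93 genes were measured and passed the filter, 48 were below mock with miR-34a and 42 with ghR-34a, where 44.8% and 48.2% of all genes were. In each comparison 0 of 87 reached 2-fold, beside 2.36%, 1.02% and 0.671% of all genes, shares at which few of 87 genes would. Their log2 differences with miR-34a ranged from -0.61 to 0.51. The lists were written with earlier results of these data known.

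The surroundings of GPN1 were examined next, because a neighbouring gene read from the same start region gives a value to set beside it. The human genes CCDC121 and GPN1 lie head to head on chromosome 2, with RefSeq starts 38 bases apart on opposite strands, and a longer GPN1 transcript model overlaps CCDC121. The 250 bases before the nearer GPN1 start, chr2:27628800-27629049 on the plus strand of GRCh38.p14, are shown from RefSeq. Only their last bases lie between the starts of GPN1 and CCDC121. Capitals mark the match to the AP-1 motif TGANTCA. It lies outside that stretch, and the window from 250 bases before to 50 after the CCDC121 start held 0 matches.
GPN1 upstream region: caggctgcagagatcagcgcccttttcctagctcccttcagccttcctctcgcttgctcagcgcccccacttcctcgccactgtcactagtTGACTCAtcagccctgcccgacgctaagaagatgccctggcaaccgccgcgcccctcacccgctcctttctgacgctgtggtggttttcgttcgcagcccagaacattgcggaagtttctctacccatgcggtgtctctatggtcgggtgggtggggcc

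CCDC121 was dim, with signals of 74.3 in mock, 105 with miR-34a and 125 with ghR-34a. It was above mock in both arrays, at log2 differences of 0.37 and 0.57. With a mock signal so near the filter level of 68.6, a fall like that of GPN1 could hardly have shown. CCDC121 therefore does not settle whether the shared start region was low with miR-34a. Its single probe set is of the _s_at kind. SUPT7L, a subunit of the SAGA coactivator that overlaps the far end of GPN1 on the opposite strand, had 1434 in mock, 1484 with miR-34a and 1471 with ghR-34a. Its other probe sets differed from mock with miR-34a by 0.64 (201836_s_at) and -0.18 (201838_s_at).
ZNF512, on the near side, had 1745, 1780 and 1683. SLC4A1AP, beyond SUPT7L, had 2005, 2293 and 2228. No neighbour was at least 2-fold from mock in either array, and none was below mock with miR-34a in the probe set used for the gene. With median centring ZNF512 (-0.032) and SUPT7L (-0.012) were just below.

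RefSeq promoter windows, from 250 bases before to 50 after a start, were found for 7 of the 8 members, 9 windows in all. Motifs were searched on both strands. The AP-1 motif TGANTCA was in both GPN1 windows, 159 bases before the nearer start and 65 before the farther one, and in the window of RPAP3, but in none of the other members' windows. It occurs in 7.71% of all 35116 windows. GPN1 was low and RPAP3 high with miR-34a, and any part of AP-1 in this was not tested. The YY1 core AANATGG was in 1 GPN1 window, 6 bases after the nearer start, and in no window of the other members. It was in 15.6% of all windows, and the window of the neighbour CCDC121 held it too, 50 bases before the CCDC121 start. A window of GPN2 held the ETS motif CCGGAAG, found in 10.3% of all windows. The CCAAT box, CCAAT, was in windows of GPN3 and RPAP3, beside 34.6% of all windows, and the TATA box, TATAAA, was in none of the members' windows, beside 11.5% of all. These are matches of letters and no measure of binding.

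The genes whose pattern was most like that of GPN1 were found by the distance between their pairs of log2 differences from mock, with 2 differences from 3 arrays. UTS2R, the urotensin receptor, was nearest at a distance of 0.041, with signals of 338 in mock, 76.8 with miR-34a and 325 with ghR-34a. Its log2 difference with miR-34a was -2.12 with a pseudocount of 1 and -1.31 with 100, where GPN1 had -1.83 and -1.73, and with both of these pseudocounts the next gene, ECHS1, was nearer to GPN1 on that axis. ECHS1, an enoyl-CoA hydratase of mitochondrial beta-oxidation, followed at 0.26, with 6027, 1433 and 5668. Both were high in mock and ghR-34a and low with miR-34a, as GPN1 was.
The noncoding RNA MIAT came next at 0.35, with signals of 160 in mock, 37.6 with miR-34a and 144 with ghR-34a. Averaged over its 4 probe sets, however, MIAT differed from mock with miR-34a by only -0.17. The antisense transcript KIF9-AS1, at 0.40, and LIME1, an adaptor protein of lymphocyte signalling, at 0.43, completed the 5. Of the 5, only ECHS1 and UTS2R had a miR-34a signal above the filter level.

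Markers of the cell line were as follows. KRT8, KRT18 and VIM were strongly measured and passed the filter, while KRT19, EPCAM and CDH1 did not, so keratin 8, keratin 18 and vimentin mark these cells here and the epithelial adhesion genes are near background. Of the markers of other cells, 2 of 7 measured for lung epithelium and neuroendocrine cells passed the filter. For leukocytes 1 of 4 did, and for fibroblasts and endothelium 3 of 7, where 11916 of all 19775 genes did. They were SFTPB, SFTPC, CD3E, COL1A1, DCN and PECAM1, with mock signals from 68.9 (DCN) to 312 (COL1A1), which may be background. Of these markers 0 reached 2-fold, beside 2.36%, 1.02% and 0.671% of all genes in the 3 comparisons. Their part in the results was not tested.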

How the data were processed

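The authors deposited linear probe set intensity values for 54675 probe sets on 3 one-colour arrays, from Affymetrix Expression Console per the submitters' processing notes; its version, its settings and a genome build were not given in the sources used here. All arrays share a 2% trimmed mean of 500.1, so a common scaling had been applied. No detection calls were used, so low signals may be background.

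From these, log2(signal + 32) was computed with Python 3.11.15, numpy 2.4.6 and pandas 2.3.3, with no further scaling. The 62 control probe sets were set aside, and 1801 probe sets with several genes were not used. Each gene took its probe set with the highest mean log2 value, and the 11916 genes whose mean reached the middle value over probe sets, a signal of 68.6, were kept. Differences were called by size, at 2-fold. The arithmetic of the size rule was checked on a copy of the mock array with planted shifts. That copy had no noise, so the check does not show how reliable calls from single arrays are. Named genes were the members, the lowest and highest gene of each list with miR-34a, the neighbours of GPN1 and the 5 nearest patterns. The members and lists were chosen with earlier results of these data known. Sequences come from RefSeq, GRCh38.p14.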

Additional observations from a re-analysis of the deposited data

How the results depend on the processing

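With 1 array per condition no library could be left out, and no paired analysis was possible because each condition had 1 array. Over 6 alternatives (a pseudocount of 1 or 100, quantile normalization, median centring, averaging a gene's probe sets, and leaving out _s_at and _x_at ones), the log2 difference of GPN1 ranged from -1.86 to -1.73 for miR-34a against mock, from -0.032 to -0.0041 for ghR-34a against mock and from 1.70 to 1.85 between the transfectants. The count of members at 2-fold was 1, 0 and 1 in those comparisons under the same alternatives and under no filter, a stricter filter and a 3-fold rule. A 1.5-fold rule gave 2 members for ghR-34a against mock, RPAP1 and POLR2A, and left the other counts at 1. For the other 7 members, 116 of 120 values moved by less than the SD of the spike-in controls. The 4 that moved further were those of GPN2 (-0.13 for miR-34a against mock and -0.076 between the transfectants) and RPAP2 (-0.34 and -0.18 for miR-34a and ghR-34a against mock), with probe sets averaged. RPAP1 and RPAP2 have only _s_at probe sets, so they gave no value when these were left out. Of 585 values over all 34 other named genes, 45 moved further than the spike-in SD and 7 crossed the 2-fold rule. Low signals, where background weighs most, limit MIAT, LIME1, KIF9-AS1, CCDC121 and UTS2R (-2.12 and -1.31 with pseudocounts of 1 and 100 for miR-34a against mock).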

Other observations

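A group of brighter genes had the pattern of GPN1, as seen when genes were picked after their values were known. Of the 136 genes that were 2-fold or more below mock with miR-34a, 21 were within 0.2 of mock with ghR-34a. Over all genes the quartiles with ghR-34a were -0.17 and 0.18, so most genes lay within 0.2, but only a minority of the 136 did. Of the 21 genes, 11 had a mock signal of at least 500, GPN1 and ECHS1 included. ITGA4, an integrin subunit, had signals of 1508 in mock, 585 with miR-34a and 1454 with ghR-34a, and the 3 further probe sets that passed the filter were lower with miR-34a too, at a median of -1.02. ITGA6, another integrin subunit, had 5123, 2449 and 5602, with 1 other probe set at -1.12. CAMK2D, a calcium-dependent kinase, had 1433, 540.2 and 1456, and 3 of 3 other probe sets were lower, at a median of -0.82. ACVR1B, an activin receptor, had 1212, 569 and 1312, with 3 of 3 others lower at a median of -0.59. With ghR-34a the medians of these other probe sets were -0.20 for ITGA4, -0.19 for ITGA6, 0.18 for CAMK2D and 0.23 for ACVR1B, the last outside the limit of 0.2. For these 4 genes, unlike GPN1 and ECHS1, probe sets other than the first could be compared. The same held for RSRC1 and AGPAT5, at medians of -0.73 and -0.55 with miR-34a and -0.10 and -0.12 with ghR-34a. With miR-34a the medians of CAMK2D, ACVR1B, RSRC1 and AGPAT5 fell short of 2-fold. Probe sets of a gene read the same RNA, so they are not replicates of the condition. By contrast, 28 of the 136 genes were at least 2-fold below mock with ghR-34a as well, where 1.02% of all genes were 2-fold from mock either way. Both differences use the same mock array.

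The divergent transcript RPAP3-DT, which is no member, was far below the filter in all arrays, with signals of 11.9 in mock, 9.65 with miR-34a and 6.06 with ghR-34a.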
